A study of Mus musculus with 19 samples.

Results

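The genes described here were 7 genes of cholesterol synthesis, Hmgcs1, Sqle, Fdft1, Lss, Cyp51, Dhcr7 and Srebf2, of 23337 gene symbols in the RefSeq transcript tables. They were chosen by name, and each was represented by 1 transcript. The study asked whether cystic embryoid bodies (cystic EBs), fluid-filled aggregates differentiated from mouse ES cells, resemble the endoderm of the visceral yolk sac (VYS), and it profiled RNA, DNA methylation and the histone mark H3K4me3. RNA-seq comprised 11 libraries with 40453779 to 169981821 counted reads, in which Rn45s, the ribosomal RNA precursor, took 0.484 to 7.35% of counts, the highest share being that of the d15 library of clone A9. No pair of libraries within a group agreed within sampling noise, with a chi-square per degree of freedom of 84.5 to 96.8 in the tissues and of 648 and 789 between the cystic EB clones at d10 and d15.

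Yolk sac endoderm (ysE) was dissected from FVB embryos at E9.25 (2 libraries) and at E12.5 (1 library). Yolk sac mesoderm at E9.25 (2 libraries) still contained blood vessels and basement membrane, and fetal liver was collected at E12.5 (2 libraries), both also from FVB. Each tissue sample pooled a whole litter. Cystic EBs came from 2 C57Bl/6x129 ES cell clones, A9 and JN, each at d10 and d15 of differentiation (4 libraries, 1 per clone and day). E9.25 tissues and JN cystic EBs were prepared with a dUTP protocol, liver and A9 cystic EBs with ScriptSeq, and the E12.5 ysE library with a non-stranded protocol. Clone and protocol therefore cannot be told apart within the cystic EBs, and in the E12.5 ysE tissue, stage and protocol rest on a single library. These were bulk samples, so a lower level could reflect fewer cells of a type or less RNA per cell, which cannot be told apart.

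Labels were compared with marker genes. Summed over 6 yolk sac endoderm markers, RPKM (reads scaled to transcript length and library size) was 8791 and 9801 in ysE at E9.25, 41474 at E12.5, 961 and 1704 in E9.25 mesoderm, and 1459 and 2624 in fetal liver, while the cystic EB libraries held 101 to 1081, and no marker of that list was at 0 in any of these groups. Most of the liver sums was Afp (1396 and 2471 RPKM). Afp and Hnf4a were higher in both liver libraries than in every cystic EB library. Amn and Cubn were lower in liver, at most 0.55 RPKM, and Ttr and Apoa4 overlapped. Blood was present in several tissues. The 6 erythroid markers summed to 857 and 1025 RPKM in ysE at E9.25, 225 at E12.5, 34370 and 44083 in E9.25 mesoderm, and 1386 and 1565 in fetal liver, while the cystic EB libraries held 12.1 to 128. The 4 pluripotency markers summed to 64.8 to 143 RPKM in cystic EBs and to at most 5.65 RPKM in any tissue library.

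Cholesterol is built from acetyl-CoA through mevalonate and squalene, and the transcription factor SREBP2, released from its membrane anchor when sterols are scarce, raises transcription of most enzymes of the route. Yolk sac endoderm takes up maternal lipoproteins and secretes lipoproteins towards the embryo, and fetal liver later makes sterols and lipoproteins itself. Among the 7 genes, Hmgcs1 encodes the cytosolic synthase that makes HMG-CoA at the head of the route, Fdft1 encodes squalene synthase, Sqle encodes squalene epoxidase, Lss encodes lanosterol synthase, Cyp51 encodes lanosterol demethylase, Dhcr7 encodes a reductase of the last step, and Srebf2 encodes SREBP2. None of them is an uptake receptor. Genes of sterol uptake and trafficking were followed in a separate list. Its counts do not give a direction of uptake, since it also holds Mylip, a ubiquitin ligase, and Soat1, which esterifies cholesterol.

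Hmgcs1 lies on chromosome 13 (119690351 to 119708260, NM_145942), Cyp51 on chromosome 5 with its start at 4104697 (NM_020010), Lss on chromosome 10 with its start at 76531605 (NM_146006), Dhcr7 on chromosome 7 with annotated starts at 143823167, 143823399 and 143830214 (NM_007856), Srebf2 on chromosome 15 with its start at 82147269 (NM_033218), Sqle on chromosome 15 (NM_009270) and Fdft1 on chromosome 14 (NM_010191), all in GRCm38 (mm10) coordinates. RefSeq promoters of 300 bases, 250 before to 50 after the start, were matched for 5 of the 7 genes. They are printed because SREBP2 acts at such promoters together with NF-Y and Sp1, and because each of them overlapped an H3K4me3 peak. Capitals mark matches on either strand to TCACNCCAC (a form of the sterol regulatory element), to CCAAT (the NF-Y box) and to GGGCGG (the GC box bound by Sp1). No matches overlapped each other. For Dhcr7 the promoter of the start at 143830214 is shown. All are written 5′ to 3′ on the gene's strand.
Hmgcs1, chr13:119690101-119690400, plus strand: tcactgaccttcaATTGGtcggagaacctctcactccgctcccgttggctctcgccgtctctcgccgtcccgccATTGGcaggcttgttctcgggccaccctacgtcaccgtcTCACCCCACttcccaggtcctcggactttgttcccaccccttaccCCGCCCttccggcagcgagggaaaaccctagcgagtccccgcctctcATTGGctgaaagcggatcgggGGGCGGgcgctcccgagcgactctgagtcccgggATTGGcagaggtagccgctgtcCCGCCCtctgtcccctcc
Cyp51, chr5:4104648-4104947, minus strand: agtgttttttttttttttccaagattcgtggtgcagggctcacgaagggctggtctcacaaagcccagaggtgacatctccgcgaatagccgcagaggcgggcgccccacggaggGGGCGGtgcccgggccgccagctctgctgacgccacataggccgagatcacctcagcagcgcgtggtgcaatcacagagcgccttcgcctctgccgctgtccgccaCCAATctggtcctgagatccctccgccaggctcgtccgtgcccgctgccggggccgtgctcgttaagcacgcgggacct
Lss, chr10:76531355-76531654, plus strand: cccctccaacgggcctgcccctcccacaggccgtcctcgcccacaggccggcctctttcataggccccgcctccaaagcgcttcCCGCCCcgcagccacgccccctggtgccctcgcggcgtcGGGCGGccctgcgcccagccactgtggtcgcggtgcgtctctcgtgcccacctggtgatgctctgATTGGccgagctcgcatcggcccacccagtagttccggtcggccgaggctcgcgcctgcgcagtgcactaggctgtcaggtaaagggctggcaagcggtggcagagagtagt
Dhcr7, chr7:143829964-143830263, plus strand: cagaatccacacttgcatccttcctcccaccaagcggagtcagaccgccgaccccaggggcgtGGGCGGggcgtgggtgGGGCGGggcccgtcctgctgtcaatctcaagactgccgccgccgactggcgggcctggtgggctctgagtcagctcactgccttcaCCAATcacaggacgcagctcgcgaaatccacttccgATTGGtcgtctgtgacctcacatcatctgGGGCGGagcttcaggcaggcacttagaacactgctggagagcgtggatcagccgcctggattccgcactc
Srebf2, chr15:82147019-82147318, plus strand: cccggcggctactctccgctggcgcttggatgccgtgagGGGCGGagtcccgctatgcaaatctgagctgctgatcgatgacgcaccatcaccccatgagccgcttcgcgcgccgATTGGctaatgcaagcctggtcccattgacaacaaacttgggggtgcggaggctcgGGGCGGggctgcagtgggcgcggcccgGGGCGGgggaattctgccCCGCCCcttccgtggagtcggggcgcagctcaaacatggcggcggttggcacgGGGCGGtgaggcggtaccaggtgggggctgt

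TCACNCCAC was found in the Hmgcs1 promoter alone among these 5 genes, 137 to 129 bases before the start, and in 1.24% of the 32851 promoters in the RefSeq set. With the other starts of Dhcr7 included, the 5 genes had 7 promoters. CCAAT was found in 5 of the 7 and in 37.4% of all promoters, and GGGCGG in 6 of the 7 and in 35.7% of all promoters. The other Dhcr7 promoters held no CCAAT, and the one shown held the most matches. Hmgcs1 held 4 CCAAT matches, more than the other promoters printed. The CCAAT match of Cyp51 lay 29 to 25 bases before its start. These matches describe letters in a 300-base window and not bound sites. GC content ran from 64.0% (Dhcr7) to 71.0% (Lss) in the 5 printed promoters and was 58.3% and 48.7% in the other Dhcr7 promoters, against a median of 52.7% over all promoters.

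H3K4me3, a mark of active promoters, was mapped in 1 library of pooled whole VYS at E12.5, so the peaks have no replicate. A peak covered an annotated or inferred start of 6 of the 7 genes. The share of all genes with such a peak was not counted here, so this number has no background beside it. The peaks at Hmgcs1, Sqle, Lss, Cyp51 and Srebf2 had a MACS score of 3100, a value that 5262 of the 22343 peaks shared, against a median of 863. For Dhcr7 the peak over the first starts scored 2669 and the peak over the start at 143830214 scored 2035. Fdft1 was the exception, as its nearest peak (score 1081) lay 2883 bases inside the annotated gene end at 63181687. For Fdft1 and Sqle the strand was not given by the tables used, and the gene end nearest a peak was taken as the start, so that a peak at the Sqle start is no independent observation.

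**Figure D1:**
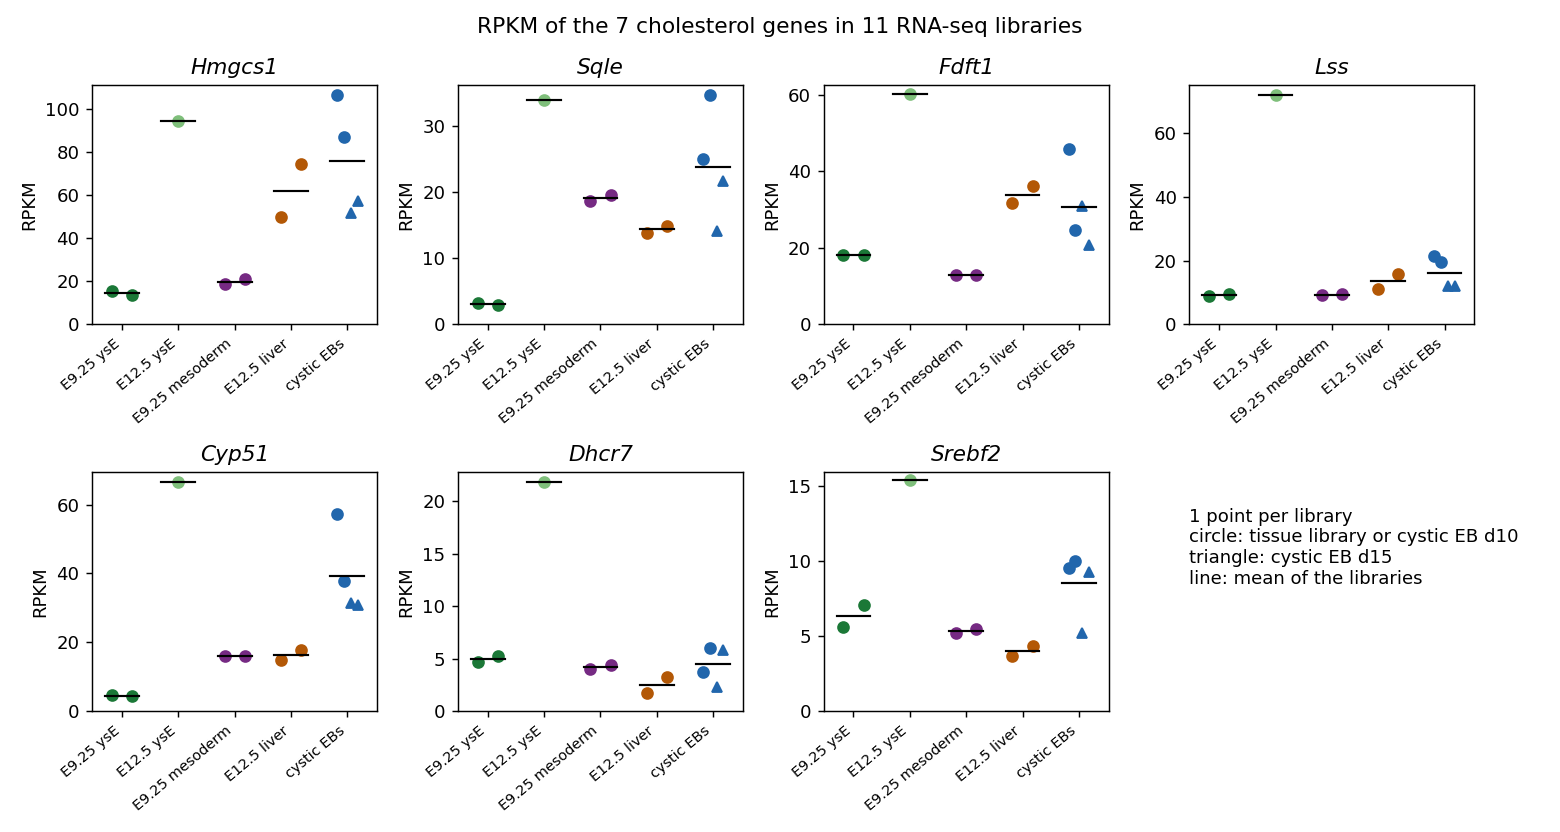
RPKM (y axis, linear from 0) of each of the 7 genes in every RNA-seq library, grouped by tissue, with 1 point per library and a line at the group mean. The single E12.5 ysE library sits between 15.4 RPKM (Srebf2) and 94.1 RPKM (Hmgcs1), and the E9.25 ysE libraries between 2.96 RPKM (Sqle) and 18.2 RPKM (Fdft1).

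The level of each gene was read first across tissues, in RPKM, which is per length, and the orders and overlaps given with it are those of RPKM. Hmgcs1 was at 15.2 and 13.6 RPKM in E9.25 ysE, 94.1 in E12.5 ysE, 18.5 and 21.0 in yolk sac mesoderm, 49.8 and 74.1 in fetal liver, while cystic EBs had 106, 87.0, 51.6 and 57.3 (d10 A9, d10 JN, d15 A9, d15 JN). Its tissues thus fell into a low pair at E9.25 and a high set of E12.5 ysE, cystic EBs and liver whose libraries overlapped.

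Sqle was lowest in the early yolk sac endoderm. It was at 3.21 and 2.96 RPKM in E9.25 ysE, 33.9 in E12.5 ysE, 18.7 and 19.5 in mesoderm, 13.9 and 14.9 in fetal liver, while cystic EBs in the same order had 25, 34.6, 14.1 and 21.7. Cystic EB libraries overlapped E12.5 ysE, mesoderm and liver, while both E9.25 ysE libraries lay below all others. Cyp51 had a similar order, with 4.53 and 4.22 RPKM in E9.25 ysE, 66.5 in E12.5 ysE, 15.9 in both mesoderm libraries, 14.8 and 17.8 in fetal liver, while cystic EBs had 57.3, 37.7, 31.3 and 30.7. Here the cystic EBs stood between E12.5 ysE and the other tissues without overlap.

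Fdft1 was at 18.2 and 18.1 RPKM in E9.25 ysE, 60.3 in E12.5 ysE, 12.8 and 12.9 in mesoderm, 31.7 and 36.0 in fetal liver, while cystic EBs had 45.9, 24.7, 30.9 and 20.8. Mesoderm, not ysE, was the lowest tissue for this gene. Lss was at 8.89 and 9.64 RPKM in E9.25 ysE, 72.0 in E12.5 ysE, 9.20 and 9.36 in mesoderm, 11.1 and 15.8 in fetal liver, while cystic EBs had 21.3, 19.5, 12.1 and 12. Apart from E12.5 ysE, Lss ranged from 8.89 to 21.3 RPKM, and E9.25 ysE overlapped mesoderm.

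Dhcr7 was at 4.72 and 5.26 RPKM in E9.25 ysE, 21.8 in E12.5 ysE, 3.97 and 4.43 in mesoderm, 1.70 and 3.27 in fetal liver, while cystic EBs had 3.69, 6.04, 2.27 and 5.82. Liver was its lowest tissue, and cystic EBs overlapped all tissues except E12.5 ysE. Srebf2 spanned the narrowest range, at 5.61 and 7.08 RPKM in E9.25 ysE, 15.4 in E12.5 ysE, 5.22 and 5.50 in mesoderm, 3.69 and 4.31 in fetal liver, while cystic EBs had 9.53, 10.0, 5.22 and 9.30. The d15 A9 library, at 5.22, stood apart from the other cystic EB libraries.

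Over the 11 libraries, pairwise Pearson correlation of log2(RPKM + 1) between the 7 genes was highest for Sqle with Cyp51 (r = 0.91) and lowest for Hmgcs1 with Dhcr7 (r = 0.19). Of 11945 other genes with a mean of at least 1 RPKM, the 5 whose pattern was most like the mean standardised profile of the 7 genes were Mvd (NR_028354, r = 0.975), Zfp653 (r = 0.966), Acly (r = 0.959), Pik3r2 (r = 0.920) and Nqo1 (r = 0.914). Mvd encodes mevalonate decarboxylase and Acly encodes ATP citrate lyase, which supplies cytosolic acetyl-CoA. All Mvd values here are those of NR_028354, a non-coding RefSeq record and the one of its 2 transcripts with the higher mean count. These correlations describe 11 libraries that share protocols and tissues, and the only library of E12.5 ysE lies at the high end of each of these profiles.

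Counts were compared by the edgeR quasi-likelihood test, with TMM scaling, over 24858 transcripts. All 7 genes passed the filter on low counts. TMM factors ran from 0.766 in E9.25 ysE B to 1.21 in d10 A9 cystic EBs, so the fold changes below differ from ratios of RPKM. Some orders differ too, as TMM-scaled counts of Hmgcs1 were 69.4 and 61.5 in E9.25 ysE and 65.8 and 78.1 in mesoderm, which overlap. The median log2 fold change over all transcripts was 0.17 for cystic EBs against E9.25 ysE, 0.20 against liver and 0.42 against E12.5 ysE, -0.05 for E9.25 ysE against mesoderm, and -0.26 and -0.21 for E12.5 ysE against liver and against E9.25 ysE. The comparisons between tissues share groups, and their counts are not independent.

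**Figure D2:**
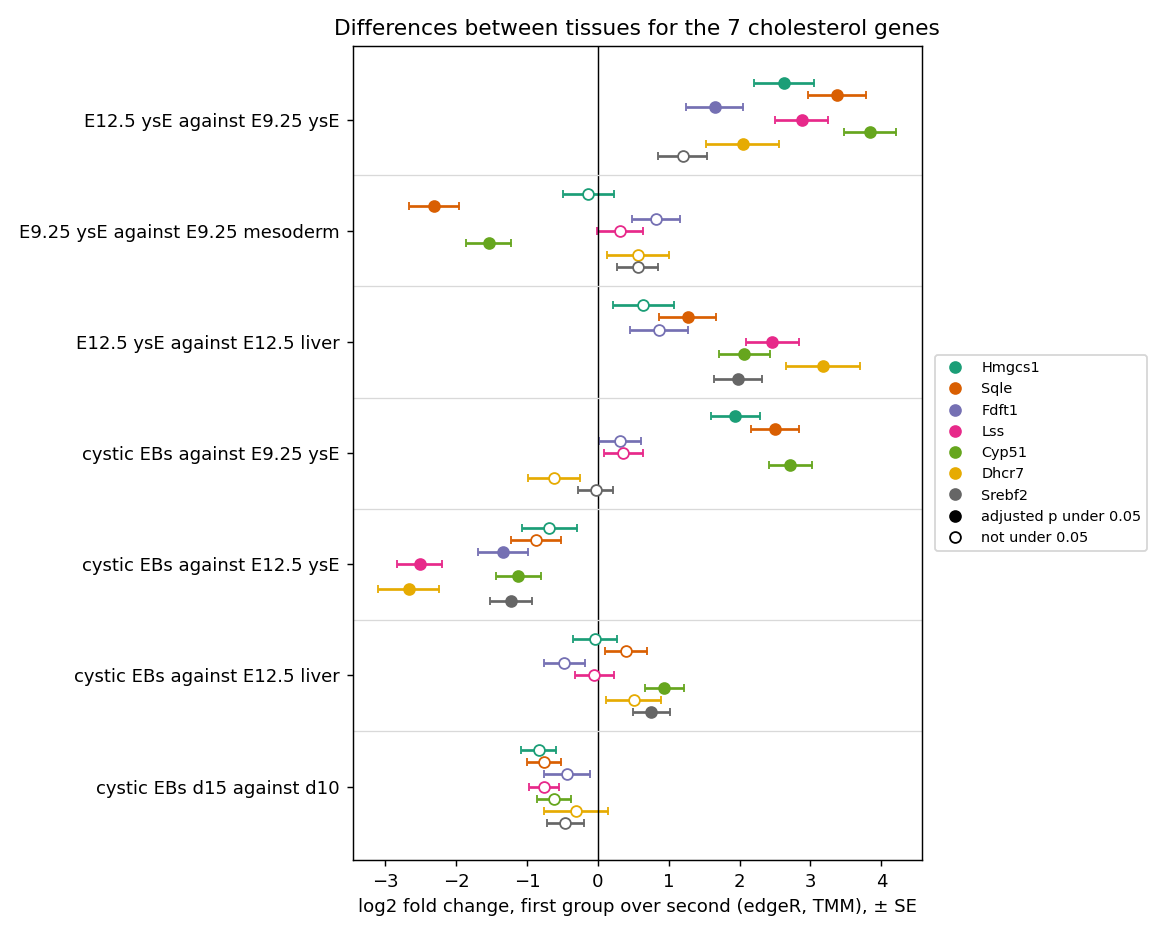
Log2 fold change (x axis, first group over second, ± SE) of the 7 genes in each of the 7 comparisons (rows), filled where the edgeR adjusted p was under 0.05. E12.5 ysE against E9.25 ysE had 6 filled points, all to the right of 0, and cystic EBs at d15 against d10 had none.

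The stage of the yolk sac endoderm gave the largest number of calls. In E12.5 ysE against E9.25 ysE, 6 of the 7 genes rose, where 3.90% of all transcripts were called higher. Cyp51 was 14.3-fold higher (log2 3.84 ± 0.37 SE, edgeR adjusted p = 0.00123), Sqle 10.4-fold (adjusted p = 0.00264), Lss 7.33-fold (adjusted p = 0.00374) and Hmgcs1 6.16-fold (adjusted p = 0.00841) by the same edgeR test. Dhcr7 was 4.13-fold higher (log2 2.05 ± 0.51, edgeR adjusted p = 0.0407) and Fdft1 3.13-fold higher (log2 1.65 ± 0.40, edgeR adjusted p = 0.0361). Srebf2 itself had a log2 fold change of 1.2 ± 0.34 and an edgeR adjusted p of 0.0618. The median over the 7 genes was 2.62, against -0.21 over all transcripts.

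This comparison had 1 library at E12.5, which the fit assumed to vary like the other groups. Leaving out a library of E9.25 ysE, mesoderm or liver left 1 library in that group. Some of these genes lost their call in each such fit, but fewer of all transcripts were called too. Those losses therefore cannot tell whether these genes are less stable than others. With any library but E12.5 ysE left out, log2 fold changes of the 6 genes lay between 1.57 (Fdft1, its lowest) and 3.96 (Cyp51, its highest). Leaving out d10 JN or d15 A9 cystic EBs added Srebf2. edgeR with RLE size factors, DESeq2 and a fit of the compared groups alone each called all 7, and in either direction they called 8.51%, 13.8% and 50.2% of all transcripts, against 8.47% here. The E12.5 library was non-stranded and the E9.25 libraries were dUTP, so stage and protocol cannot be told apart. None of the 6 yolk sac endoderm markers passed the test between these stages. Of the 5 fetal hepatocyte markers 2 were higher at E12.5, and that list summed to 1284 and 1487 RPKM at E9.25 and 10146 RPKM at E12.5, above the 1074 and 1980 RPKM of fetal liver itself. Most of the E12.5 sum was Trf (8328 RPKM). In E12.5 ysE Trf, Fgb and Ahsg exceeded both liver libraries. Alb (80.5 against 358 and 767 RPKM in liver) and Itih2 (76.9 against 265 and 375) were below both. Erythroid markers were lower at E12.5 in 3 of 6 cases and mesodermal and endothelial markers in 2 of 6, where 4.57% of all transcripts were called lower. The part of these markers in the result was not tested.

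Other genes of the pathway were counted from lists. Among 7 further mevalonate and isoprenoid enzymes, 1 rose between E9.25 and E12.5 ysE, namely Mvd (log2 3.08 ± 0.39 SE, edgeR adjusted p = 0.00293). Among 7 further post-squalene enzymes 3 rose, led by Msmo1, a sterol demethylase (log2 2.68 ± 0.43). In the uptake and trafficking list 1 of 7 rose, Npc2, which carries sterol out of lysosomes (log2 1.53 ± 0.29).

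The SREBP processing list had 2 of 6 genes higher, Insig1, which retains SREBPs in the endoplasmic reticulum and is itself a SREBP target (log2 3.62 ± 0.32), and Srebf1 (log2 1.43 ± 0.35). Fatty acid synthesis genes were higher in 4 of 7 cases, with malic enzyme Me1 at log2 2.61 ± 0.40 and the desaturase Scd2 at log2 2.14 ± 0.42. Of the 4 efflux and LXR genes 2 were higher, the sterol exporters Abcg1 (log2 3.05 ± 0.45) and Abca1 (log2 2.01 ± 0.39). No gene of these lists was called lower in this comparison, and the 6 oxysterol and bile acid enzymes had no call. That list was at low levels, with 5.13 RPKM (Cyp27a1 in E12.5 ysE) its highest value, and folds are not given for it because several libraries were at 0. Its calls were 2 higher and 1 lower in cystic EBs against E9.25 ysE, 2 and 2 against E12.5 ysE, 0 and 1 against liver, 0 and 2 in E9.25 ysE against mesoderm, and 2 and 3 in E12.5 ysE against liver. Of all transcripts, cystic EBs had 27.1% called higher and 23.2% lower against E9.25 ysE, and 21.1 and 18.8% against E12.5 ysE. Against liver these shares were 24.6 and 20.9%. They were 13.7 and 16.9% in E9.25 ysE against mesoderm, and 22.6 and 23.7% in E12.5 ysE against liver.

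**Figure D3:**
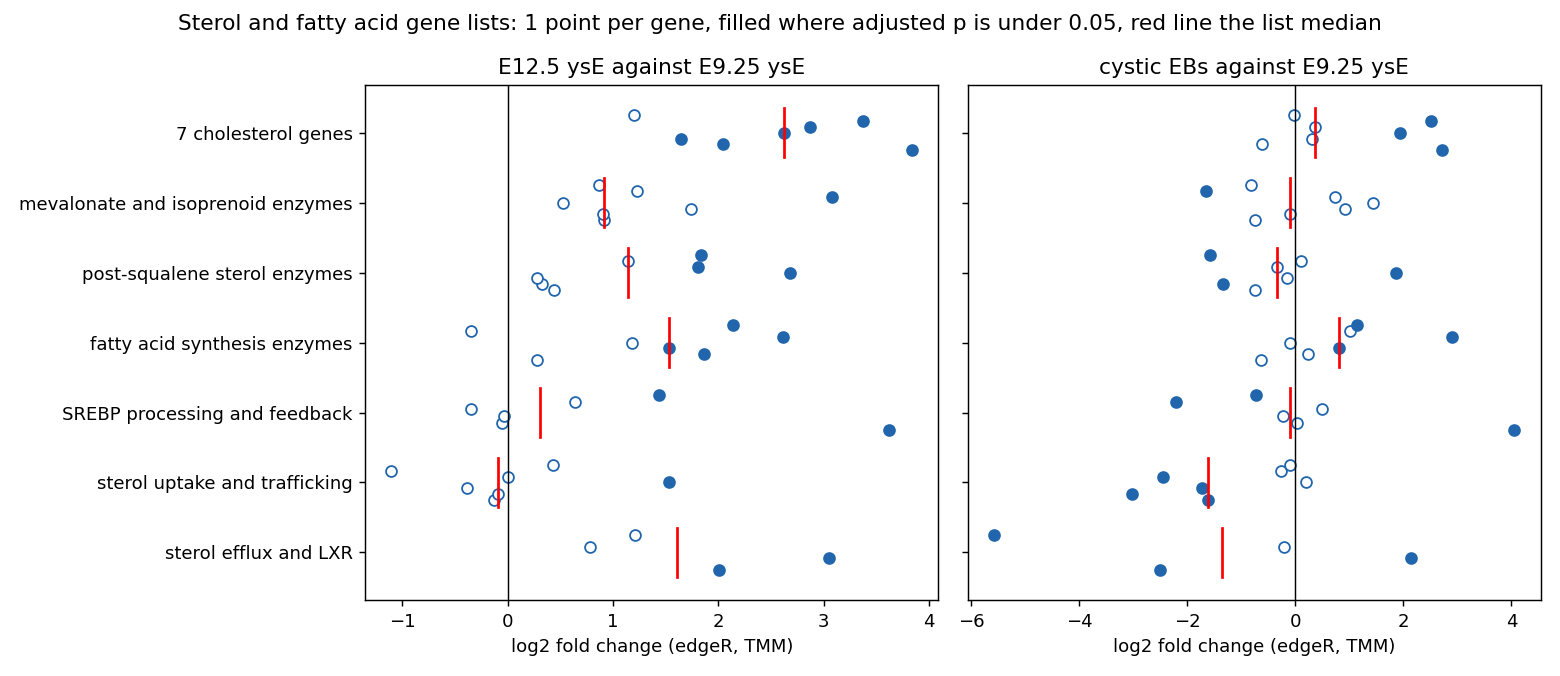
Log2 fold change (x axis) of each gene in the sterol and fatty acid lists (rows), for E12.5 ysE against E9.25 ysE (left) and cystic EBs against E9.25 ysE (right). Filled points had an edgeR adjusted p under 0.05 and red lines are list medians. On the left all filled points were higher, and on the right filled points lay on both sides of 0.

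Cystic EBs were compared with ysE of each stage, first E9.25. Hmgcs1, Sqle and Cyp51 were higher in cystic EBs, 3 of the 7 genes, where 27.1% of all transcripts were called higher. Cyp51 was 6.57-fold higher (log2 2.72 ± 0.30 SE, edgeR adjusted p = 0.000133), Sqle 5.66-fold (log2 2.50 ± 0.33, adjusted p = 0.000332) and Hmgcs1 3.84-fold (log2 1.94 ± 0.34, edgeR adjusted p = 0.00152). Fdft1 (log2 0.31 ± 0.30), Lss (0.36 ± 0.28), Dhcr7 (-0.62 ± 0.37) and Srebf2 (-0.03 ± 0.25) did not pass. RPKM of all 4 cystic EB libraries exceeded both E9.25 ysE libraries for 5 genes, the 3 called and Fdft1 and Lss, where 43.6% of transcripts had this order. In TMM-scaled counts Fdft1 and Lss lost it, with Fdft1 at 57.1 to 132 in cystic EBs and 72.5 and 71.3 in E9.25 ysE, and Lss at 35.5 to 66.2 and at 38.4 and 41.1.

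Within the dUTP libraries alone, with JN cystic EBs against E9.25 ysE, Cyp51 (log2 2.61), Sqle (2.84) and Hmgcs1 (1.97) were again called. In that fit 60.9% of all transcripts were called in either direction. Counts over Ensembl exon parts, which were used for 4 cystic EB libraries and E9.25 ysE A, were a second view of the same reads. Mean library-scaled counts in cystic EBs were 8.72 times that of ysE A for Cyp51, 8.09 times for Sqle and 5.27 times for Hmgcs1, and between 1.02 times (Dhcr7) and 2.42 times (Lss) for the other genes. All 4 cystic EB libraries exceeded ysE A in 13 of 14 exon parts of Sqle with a mean of at least 50 reads, 7 of 8 of Fdft1, 8 of 10 of Hmgcs1, 12 of 16 of Cyp51, 11 of 26 of Lss, 5 of 19 of Srebf2 and 1 of 12 of Dhcr7, where 34.2% of all exon parts at that depth had this order against this single ysE library.

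The lists moved in both directions here. Insig1 was higher in cystic EBs (log2 4.06 ± 0.29 SE, edgeR adjusted p = 2.14e-05) at 59.2 to 86.1 RPKM against 4.06 and 2.64 RPKM, while Scap, which escorts SREBPs to the Golgi, was lower (log2 -2.22 ± 0.46), and 1 of 6 genes of that list rose and 2 fell. Scap was at 3.14 and 1.66 RPKM in A9 cystic EBs (ScriptSeq) and 7.75 and 5.55 in JN cystic EBs (dUTP). E9.25 ysE (dUTP) had 13.5 and 17.2. The part of clone and protocol in the size of this difference was not tested. Of the uptake and trafficking list 4 of the 7 genes reported here fell, where 23.2% of all transcripts were called lower, with Scarb1, the HDL receptor, at log2 -2.46 ± 0.24 and Mylip, a ubiquitin ligase induced by LXR, at log2 -3.03 ± 0.25. Of the post-squalene list 1 of 7 rose, Msmo1 (log2 1.86 ± 0.35), and 2 fell, with Tm7sf2, a sterol reductase, at log2 -1.58 ± 0.32. Nr1h3, which encodes LXR alpha, was lower (log2 -5.59 ± 0.31), as was Abca1 (log2 -2.51 ± 0.28), 2 of 4 in that list with 1 higher. Mvk, mevalonate kinase, was the 1 of 7 mevalonate genes called and was lower (log2 -1.65 ± 0.33). Of the 7 fatty acid genes 3 were higher, with Me1 at log2 2.90 ± 0.34 and Scd2 at log2 1.14 ± 0.33.

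Cell type markers differed in the same contrast. All 6 yolk sac endoderm, all 6 erythroid and 3 of 5 fetal hepatocyte markers were lower in cystic EBs, where 23.2% of all transcripts were called lower. In cystic EBs 4 of 4 neural, 3 of 4 pluripotency, 3 of 4 cardiac and 2 of 6 mesodermal and endothelial markers were higher, where 27.1% were called higher. Summed neural markers were at 9.77 to 22.1 RPKM in cystic EBs and 0.702 and 0.709 RPKM in E9.25 ysE. Their part in the differences of the 7 genes was not tested.

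Against E12.5 ysE, 5 of the 7 genes were lower in cystic EBs, where 18.8% of all transcripts were called lower. Dhcr7 was 6.35-fold lower (log2 -2.67 ± 0.43 SE, edgeR adjusted p = 0.00120), Lss 5.71-fold lower (log2 -2.51 ± 0.31, edgeR adjusted p = 0.000314), Fdft1 2.53-fold (log2 -1.34 ± 0.35), Srebf2 2.34-fold (log2 -1.23 ± 0.30) and Cyp51 2.18-fold lower (log2 -1.13 ± 0.32). Hmgcs1 (log2 -0.68 ± 0.38) and Sqle (-0.87 ± 0.36) did not pass. Their cystic EB libraries overlapped the E12.5 ysE library in RPKM but not in TMM-scaled counts, where Hmgcs1 was at 403 in E12.5 ysE and at most 350 in cystic EBs, and Sqle at 122 and at most 98.0. A fit of the compared groups alone called only Lss and Dhcr7, and without d10 JN cystic EBs Sqle was called too (log2 -1.12). The E12.5 ysE arm was 1 library in a protocol of its own.

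Around them, 4 of 7 mevalonate genes were lower in cystic EBs, with Mvk at log2 -2.88 ± 0.39 and Mvd at -2.34 ± 0.32, and none was called higher. In the post-squalene list 5 of 7 were lower, with Tm7sf2 at log2 -3.41 ± 0.37 and Nsdhl, a sterol dehydrogenase, at -2.15 ± 0.38. The uptake list had 5 of 7 lower, led by Mylip (log2 -2.94 ± 0.29) and Scarb1 (-2.46 ± 0.28). In the SREBP list 2 of 6 were lower, Scap (log2 -2.86 ± 0.53) and Srebf1 (-2.15 ± 0.30), and in the efflux list 3 of 4, with Nr1h3 at log2 -6.80 ± 0.35 and Abca1 at -4.51 ± 0.32. The fatty acid list had 1 of 7, Acly (log2 -1.63 ± 0.25). All 6 yolk sac endoderm markers and all 5 fetal hepatocyte markers were also lower in cystic EBs, and 4 of 4 neural, 4 of 6 mesodermal and endothelial, 3 of 4 cardiac and 3 of 4 pluripotency markers were higher, where 21.1% of all transcripts were called higher. The part of these markers in the 5 calls was not tested.

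Fetal liver served as embryonic endoderm. Cystic EBs had 2 of the 7 genes higher than liver, where 24.6% of all transcripts were called higher, namely Cyp51 (1.92-fold, log2 0.94 ± 0.28 SE, edgeR adjusted p = 0.0204) and Srebf2 (1.69-fold, log2 0.76 ± 0.26, edgeR adjusted p = 0.0380). These were also the genes for which all cystic EB libraries exceeded both liver libraries in RPKM, where 39.4% of transcripts had this order. Hmgcs1 (log2 -0.04 ± 0.31), Lss (-0.05 ± 0.28), Sqle (0.40 ± 0.30), Fdft1 (-0.47 ± 0.29) and Dhcr7 (0.51 ± 0.39) did not pass. Neither call was held when either liver library was left out or when only these groups were fitted. Srebf2 kept its call only when E12.5 ysE or d15 A9 cystic EBs were the library left out, and without d10 A9 cystic EBs Fdft1 was called lower (log2 -0.72). Within the ScriptSeq libraries, with A9 cystic EBs, Cyp51 was called (log2 1.13) and Srebf2 was not (log2 0.57). Of the SREBP list 4 of 6 genes exceeded liver in cystic EBs, with Insig1 at log2 2.96 ± 0.27, and 1 was lower, and Me1 was at log2 4.38 ± 0.37. Of the uptake and trafficking list 3 of 7 were higher, with Npc2 at log2 1.96 ± 0.23 and Soat1 at 1.91 ± 0.26. Of the mevalonate list 1 of 7 was higher (Acat2, log2 1.41 ± 0.42), of the post-squalene list 1 of 7 was higher (Sc5d, log2 1.78 ± 0.28) and 1 was lower (Ebp, log2 -1.13 ± 0.30), and of the efflux list 3 of 4 were lower, with Abca1 at log2 -3.73 ± 0.28. All 5 hepatocyte, 5 of 6 erythroid and 2 of 3 macrophage markers were lower in cystic EBs, where 20.9% of all transcripts were called lower. All 4 pluripotency and 3 of 4 neural markers were higher. Of the 6 yolk sac endoderm markers 2 were higher and 2 were lower. The part of these markers in the calls of Cyp51 and Srebf2 was not tested.

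E12.5 ysE and E12.5 liver differed in 5 of the 7 genes, all higher in ysE, where 22.6% of all transcripts were called higher. Dhcr7 was 9.03-fold higher (log2 3.18 ± 0.52 SE, edgeR adjusted p = 0.00112), Lss 5.51-fold (log2 2.46 ± 0.38), Cyp51 4.18-fold (log2 2.06 ± 0.36), Srebf2 3.95-fold (log2 1.98 ± 0.34) and Sqle 2.41-fold (log2 1.27 ± 0.40, edgeR adjusted p = 0.0268). Fdft1 (log2 0.87 ± 0.41) and Hmgcs1 (0.64 ± 0.43) did not pass. The RPKM of the ysE library exceeded both liver libraries for all 7 genes, where 39.7% of transcripts had this order. Leaving out liver A or B ended the call of Sqle, and without d10 A9 cystic EBs Fdft1 was called as well. Tissue and protocol cannot be told apart in this pair.

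The same pair had 6 of 7 uptake and trafficking genes higher in ysE, with Npc2 at log2 3.29 ± 0.29 and Mylip at 3.02 ± 0.35, and 5 of 7 post-squalene genes, with Tm7sf2 at log2 3.39 ± 0.46 and Sc5d, a sterol desaturase, at 2.82 ± 0.35. Of the mevalonate list 4 of 7 were higher, with Acat2 at log2 3.09 ± 0.54 and Mvk at 2.97 ± 0.47, and of the SREBP list 5 of 6, with Scap at 3.26 ± 0.66. The fatty acid list had 3 of 7 higher, with Me1 at log2 4.09 ± 0.41, and the efflux list 1 of 4, Nr1h3 (log2 3.23 ± 0.41). All 6 yolk sac endoderm and 2 of 5 fetal hepatocyte markers were higher in ysE. In the same pair 3 of 6 erythroid, 4 of 6 mesodermal and endothelial, 2 of 3 macrophage and 2 of 4 neural markers were lower, where 23.7% of all transcripts were called lower. The part of these markers in the 5 calls was not tested.

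Within the E9.25 yolk sac, endoderm and mesoderm were compared in libraries of 1 protocol. Sqle was 4.97-fold lower in ysE (log2 -2.31 ± 0.36 SE, edgeR adjusted p = 0.00131) and Cyp51 2.91-fold lower (log2 -1.54 ± 0.31, edgeR adjusted p = 0.00505), 2 of the 7 genes, where 16.9% of all transcripts were called lower. Hmgcs1 (log2 -0.14 ± 0.36), Lss (0.32 ± 0.32), Fdft1 (0.82 ± 0.34), Dhcr7 (0.56 ± 0.44) and Srebf2 (0.56 ± 0.29) did not pass. In a fit of these 4 libraries alone Fdft1, Dhcr7 and Srebf2 were also called, higher in ysE, which made 5 calls, and with the replicate letter as a block there were 5 as well. Those fits called 60.3% and 56.3% of all transcripts in either direction, against 30.6% in the fit of all libraries. Leaving out d10 A9 or d15 JN cystic EBs also added the call of Fdft1. Insig1 was lower in ysE (log2 -1.54 ± 0.28), the 1 call of 6 in its list. The uptake list had 5 of 7 higher in ysE, where 13.7% of all transcripts were called higher, with Mylip at log2 2.33 ± 0.31 and Npc1, a lysosomal sterol transporter, at 2.02 ± 0.26. Of the efflux list 2 of 4 were higher, with Nr1h3 at log2 4.0 ± 0.39, and 1 was lower, Abcg1 (log2 -2.0 ± 0.39). Post-squalene genes were higher in 3 of 7 cases, with Hsd17b7, a sterol reductase, at log2 1.76 ± 0.27, fatty acid genes in 1 of 7 (Scd1, log2 2.59 ± 0.68), and the 7 mevalonate genes had no call. All 6 mesodermal and endothelial markers and all 6 erythroid markers were lower in ysE and 5 of 6 yolk sac endoderm markers were higher, and the part of these cells in the 2 calls was not tested.

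**Figure D4:**
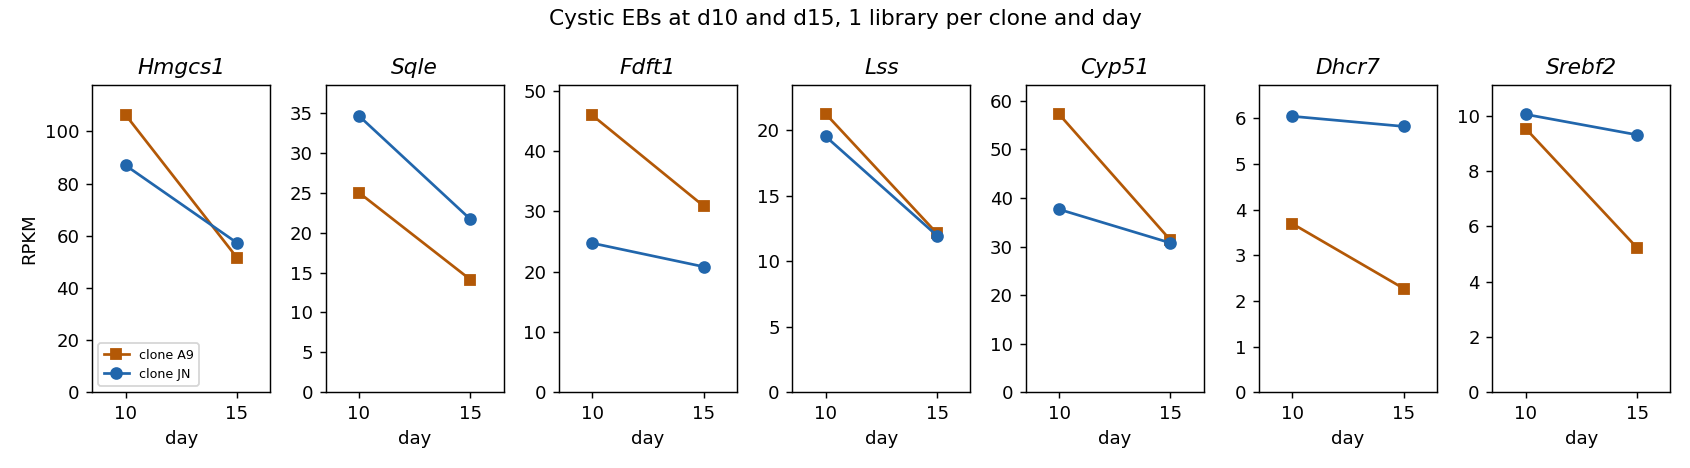
RPKM (y axis, linear from 0) of the 7 genes in cystic EBs at d10 and d15 (x axis), with 1 library per clone and day and a line joining the libraries of a clone. Every line fell, steepest for Hmgcs1 in clone A9 and nearly flat for Dhcr7 in clone JN.

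From d10 to d15 of cystic EB differentiation the RPKM of all 7 genes was lower in both clones, an order that 27.2% of all transcripts had. In clone A9 Hmgcs1 was at 106 RPKM at d10 and 51.6 at d15, and in clone JN at 87.0 and 57.3. Sqle went from 25 to 14.1 RPKM in A9 and from 34.6 to 21.7 in JN, and Lss from 21.3 to 12.1 and from 19.5 to 12. The change in RPKM ran from -32.8% (Fdft1) to -51.5% (Hmgcs1) in A9 and from -3.66% (Dhcr7) to -38.8% (Lss) in JN. For Dhcr7 the clones differed by more RPKM on each day than the days did within a clone.

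No gene of the 7 passed the test, and 0% of all transcripts were called by edgeR. Log2 fold changes ran from -0.84 ± 0.25 SE for Hmgcs1 to -0.31 ± 0.45 for Dhcr7, with edgeR adjusted p from 0.882 to 1. By edgeR's unadjusted p, 4 of the 7 genes (Hmgcs1 0.00873, Sqle 0.0133, Lss 0.00628 and Cyp51 0.0318, 2 libraries per day) and 1358 of all transcripts were under 0.05, and DESeq2 called 145 transcripts, none of them these genes. The d15 A9 library also had the highest Rn45s share, 7.35% against 1.92 to 2.94% in the other cystic EB libraries. None of the lists of sterol, fatty acid or cell type marker genes had a call between days.

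CpG methylation was read from 6 low-coverage whole genome bisulphite libraries of CAST and FVB crosses, in both directions (CxF and FxC), for E12.5 ysE, E12.5 liver and d15 cystic EBs of the ES clones CF C2 and FC A2. Within 1 kb to either side of the first start, at least 5 reads were found in 21 combinations of gene and library, and Hmgcs1 was not analysed here. Cyp51 had 0 of 10 reads methylated in ysE CxF (exact 95% interval 0 to 30.8%) and 1 of 9 in ysE FxC, 4 of 7 in liver FxC and 8 of 13 in cystic EB CxF (61.5%, interval 31.6 to 86.1%). Within 500 bases of this start ysE CxF and ysE FxC each had 0 of 8 reads methylated. Liver FxC and cystic EB CxF had 0 reads there, so these libraries were read at different CpGs. Inside the H3K4me3 peak over the Cyp51 start cystic EB CxF had 0 of 13 reads methylated, ysE CxF 0 of 10 and ysE FxC 9 of 23 (39.1%), so the order of these libraries changed with the window. The depth is a few reads per gene, and the intervals cover counting error only.

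Lss was at 33.3% (5 of 15) and 20% (2 of 10) in ysE, 100% (11 of 11) and 23.1% (3 of 13) in liver, and 100% (7 of 7) in cystic EB FxC. The liver libraries differed from each other as much as tissues did, but they were read at different CpGs. Within 500 bases of the Lss start liver CxF had 0 reads, and liver FxC had 0 of 10 methylated. Sqle had 0 of 14 reads methylated in ysE CxF, 4 of 5 in ysE FxC and 8 of 60 in cystic EB CxF. In the last of these libraries it had 0 of 40 within 500 bases (exact 95% upper bound 8.81%) and 11 of 40 inside the peak. Fdft1, whose annotated end carried no peak, had 21 of 21 reads methylated there in cystic EB CxF, and 10 of 12 and 18 of 22 in liver, whereas inside its nearest H3K4me3 peak it had 0 of 8 in cystic EB CxF and 0 of 3 and 0 of 8 in liver. Sqle and Srebf2 were not analysed in liver, so the tissues are represented by different genes. Over all CpGs called, the CxF and FxC libraries were methylated at 67.8 and 60.1% for ysE, 77.6 and 79.8% for fetal liver, while cystic EBs had 87.0 and 82.6%. The median over covered genes and libraries was 11.1% for ysE (9 values), 69.5% for liver (6) and 55.8% for cystic EBs (6), and with 500 bases it was 0%, 16.7% and 7.14%. With Sqle and Srebf2 dropped in each tissue it was 5.56%, 69.5% and 80.8%. The genes still differed between tissues in these medians within 1 kb, and so did the CpGs read within a gene. Fdft1, with 3 reads in each ysE library, gave no ysE value, but it entered for both liver libraries and cystic EB CxF at an end without a peak. No test was made between tissues. Inside the nearest H3K4me3 peak the medians were 16.7% for ysE, 40.2% for liver and 14.3% for cystic EBs, so that the order of ysE and cystic EBs changed with the window.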

How the data were processed

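The data comprised 11 RNA-seq libraries in 5 tissue groups, 6 bisulphite libraries and 1 H3K4me3 library with its input, all of mouse. RNA was depleted of ribosomal RNA before library preparation. The authors aligned reads with GSNAP to mm10. Deposited read counts per RefSeq transcript (30455 rows) are raw, and deposited RPKM values are scaled by the authors to transcript length and library size. How the authors treated multi-mapping reads and strand was not given in the sources used here, so reads shared with near-identical copies or antisense genes could be split between them. The deposited counts per Ensembl exon part came from the DEXSeq counting script, run by the authors. Per the labels and file columns, methylation is a percent of reads at each CpG with its read count, called by the authors with BisSNP. The MACS (1.4.2) score of each deposited peak was assigned by the authors against input.

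The 7 genes, the lists and the tests were chosen with earlier results of these data known. Differences were fitted with edgeR 4.0.16 in R 4.3.3 (glmQLFit, TMM, filterByExpr) over all 11 libraries in 5 groups, and with days apart for d15 against d10, with Benjamini-Hochberg adjustment over 24858 transcripts at 5%. p-values measure the spread between these samples. In the tissue comparisons the 4 cystic EB libraries were fitted as independent, although they came from 2 clones on 2 days. Their SE and p-values thus count each clone more than once. E12.5 ysE, with 1 library, took its spread from the other groups. Nothing in the labels describes the litters or cultures further. The named list genes were, per comparison, the 2 with the largest absolute log2 fold change among those called in a list. Some genes of these lists are not reported here, and the list counts leave them out. The biological coefficient of variation was 0.399. Same-lettered cystic EB libraries come from the same ES cell clone, and their deviations from the day means were correlated (r = 0.746). The ysE and mesoderm letters were not (r = -0.103). The edgeR fit was tested on simulated counts for cystic EBs against E9.25 ysE only. Those counts had independent libraries and a coefficient of variation set below 0.399. Comparisons with the single E12.5 ysE library were not simulated. Methylation required 5 reads, with exact (Clopper-Pearson) 95% intervals. Alternatives were DESeq2 1.42.0, RLE scaling, no filter, counts summed by symbol, only the compared groups, leaving out each library, replicate blocks, libraries of 1 protocol, other coverage minimums and windows, and other peak rules. The table of repeats outside genes was not used, nor was the exon part file of E9.25 ysE B, in which every exon part is 0.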

Additional observations from a re-analysis of the deposited data

Results flagged for a closer look

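Values in the 4 cystic EB libraries were examined for a sample far from the others (Dixon's ratio of the gap to the range, whose critical value chance exceeds in about 5% of groups), for the 7 genes and the list genes named by rule. Srebf2 exceeded it, at 0.847, since clone A9 at d15 was at 5.22 RPKM and the others at 9.30 to 10.0 RPKM. These libraries are 2 clones on 2 days, with clone and protocol confounded, and are not interchangeable replicates. Of 35 genes examined 5 exceeded the value. Among list genes, Nsdhl (0.871), Scarb1 (0.842), Scd2 (0.834) and Cyp7a1 (1.0, at RPKM near 0) did so as well.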

How the results depend on the processing

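The 3 calls of cystic EBs against E9.25 ysE were counted under every alternative run, and the 0 calls between days likewise, including with the ES cell clone as a replicate block (0 calls). Against liver the 2 calls became 1 with RLE scaling, 1 within ScriptSeq libraries and 0 in a fit of the compared groups, and 0 to 2 when libraries were left out. Against E12.5 ysE the 5 calls became 2 with only the compared groups (5 to 6 leaving out libraries). For E9.25 ysE against mesoderm the 2 calls became 5 with only the compared groups, 5 with the replicate letter as a replicate block, and 5 with the letters crossed between tissues, an alternative chosen after seeing the data (2 to 3 leaving out libraries). For E12.5 ysE against E9.25 ysE leaving out libraries gave 3 to 7 calls, and against liver 4 to 6. The cause of these changes was not tested, apart from the different libraries fitted.

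Directions that reversed belonged to genes without a call. In cystic EBs against E9.25 ysE, Srebf2 was at log2 0.065 with RLE, 0.066 with DESeq2, 0.26 within dUTP libraries and -0.13 to 0.19 leaving out libraries, and Fdft1 was at -0.026 within dUTP libraries. Against liver within ScriptSeq libraries Hmgcs1 was at 0.038, Lss at 0.0066 and Dhcr7 at -0.043, and leaving out libraries gave -0.28 to 0.25 for Hmgcs1 and -0.27 to 0.20 for Lss. Between days, leaving out libraries gave -0.82 to 0.053 for Fdft1 and -1.0 to 0.19 for Dhcr7.

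The methylation medians moved to 45.8% in cystic EBs with at least 10 reads (ysE 9.52%, liver 81.8%), to 14.3% in cystic EBs inside the nearest H3K4me3 peak (ysE 16.7%, liver 40.2%) and to 80.8% in cystic EBs with Sqle and Srebf2 dropped (ysE 5.56%, liver 69.5%), both chosen after seeing the data, and within 500 bases to 0% for ysE, 16.7% for liver and 7.14% for cystic EBs, where 9 combinations of gene and library were left in place of 21. Peaks at 6 genes stayed at 6 under both peak rules, again without a share over all genes. Methylation was limited by its read depth, and Fdft1 gave no ysE value within 1 kb, so the medians did not compare the same genes. Nor did they compare the same CpGs within a gene.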
